A study of Mus musculus with 4 samples.

Results

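The miRNAs described here are a block of mouse miRNAs that entered the miRBase catalogue close together, with identifiers between MIMAT0005400 and MIMAT0009460. A row of the deposited table was a member when the number of its first identifier fell in this range, which gave 111 of the 1265 miRNAs on the chip. The range was set by the identifiers alone, and no measured value entered the rule. The range was drawn up with earlier results of these data known. It was meant to take in the names from miR-1186 to miR-1983. Only 1 member could be given a name here, miR-1900 (MIMAT0007870), by matching the signals printed for it in the study to the deposited values. Its name lies within that series, and the label could not be checked for the other 110, which are called by their identifiers. At the upper limit, MIMAT0009460 was listed on no array, and the next row, MIMAT0009461, was listed at 15.8 in aged mouse 2 and 11.0 in young mouse 1. At the lower limit, neither the first member, MIMAT0005438, nor the row before it was listed on any array.

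The study asked which cell-free miRNAs of blood plasma differ with age. RNA was isolated from the plasma of 2 aged (23 to 24 months) and 2 young (6 to 7 weeks) male mice of the strain C57BL6/J, with no treatment or modified allele, and each mouse was measured on 1 array. The arrays were 3D-Gene mouse miRNA chips, 1-colour arrays with a probe for each mature miRNA, to which RNA carrying the dye Hy5 binds. Blood had been drawn by cardiac puncture.

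A mature miRNA is a short RNA cut from a hairpin precursor. It is loaded into an Argonaute protein and guides it to messenger RNAs through pairing of its seed, the bases 2 to 8 from the 5′ end, and the messenger RNA is then repressed. In plasma, miRNAs are protected from nucleases inside vesicles or in complexes with proteins. Many entries that were added to the mouse catalogue from sequencing surveys have no known counterpart outside rodents, and the targets of most of them have been little studied.

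The sequence of miR-1900 is shown because it is the 1 member with a name. In the RefSeq table of GRCm38.p6, the Mir1900 hairpin lies on the minus strand at chr9:21032251-21032328, and the mature miRNA at chr9:21032261-21032282. In the mature sequence the seed is in capitals, and in the hairpin the mature miRNA, bases 47 to 68, is in capitals.
miR-1900 mature: gGCCGCCCucucugguccuuca
miR-1900 hairpin: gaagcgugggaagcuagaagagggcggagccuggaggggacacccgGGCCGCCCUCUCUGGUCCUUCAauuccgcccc
The mature miRNA has 22 bases, of which 5 are G and 10 are C, a GC content of 68.2%. The table holds 105 mature miRNAs with names from miR-1186 to miR-1983, with a GC content of 27.3% to 76.2% and a median of 56.5%, and 10 of them, miR-1900 included, are at or above the value of miR-1900. Of 1679 distinct mature names in the table, 0 others have the seed of miR-1900. The hairpin lies within the span of Icam5, a neuronal adhesion molecule of the ICAM family that is annotated on the opposite strand, beside Icam1 and Icam4. Sequences could not be paired with the other members.

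Signals are the linear intensities that the authors deposited, and on every array those listed have a median of 25. Many miRNAs have no signal on 1 or more arrays and are called not listed there. No source used here gives the limit below which a signal was dropped. Over the whole chip, 439 to 620 miRNAs were listed per array, and 362 were listed on all 4 arrays. The array of young mouse 2 stood apart, with the fewest miRNAs listed and the lowest median signal of the 362 shared miRNAs, 35.2 against 55.9 to 67.9 on the other arrays. Over all its listed values that array had the same median of 25 as the others, and 362 of its 439 listed miRNAs were shared. Many of the differences between the ages below are also given without young mouse 2. The tissue could be checked only in part, since 4 of 11 markers of blood and tissue origin could be tied to a row and none of the red cell markers could. All 4 are among the miRNAs that the study printed for their low or high ratios on these arrays. Their differences between the ages were thus part of how they were chosen, and are not independent evidence. The signals of 3 muscle markers, miR-133b-3p, miR-133a-3p and miR-1a-3p, summed to 216 and 479 in aged mice 1 and 2, against 1395 (1394.5) and 558 (557.5) in young mice 1 and 2. The myeloid marker miR-223-3p was at 430 (429.9) and 499 in the aged mice, against 269 and 141 in the young mice. The part of muscle or myeloid RNA in the results below was not tested.

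No array listed more than 44.1% of the members. There were 43 members listed in aged mouse 1 and 44 in aged mouse 2, against 49 in young mouse 1 and 33 in young mouse 2. As a share of the 111 members this was 38.7% and 39.6% on the aged arrays, against 44.1% and 29.7% on the young arrays. The young arrays thus lay on either side of both aged arrays. The rest of the chip followed the same order, with 45.1% and 46.3% of 1154 miRNAs on the aged arrays, against 49.5% and 35.2% on the young arrays. On every array the share of the members was below that of the rest, given here as a description with no test.

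**Figure D1:**
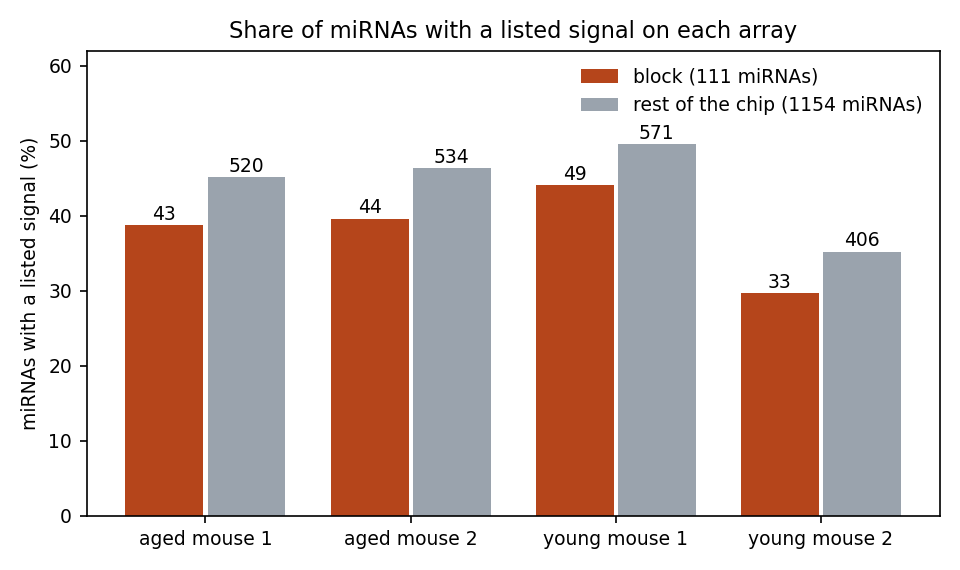
Share of miRNAs with a listed signal (vertical axis, percent) on each of the 4 arrays, for the 111 members of the block and the 1154 other miRNAs, with the number listed above each bar. On each array the bar of the block is the lower of the pair, and both bars are lowest for young mouse 2.

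No signal was listed on any array for 51 members, or 45.9%, against 396 of the other miRNAs, or 34.3%. A further 14 members were listed on 1 array, 9 on 2 arrays and 11 on 3 arrays. The remaining 26 members, 23.4% of the block, were listed on all 4 arrays, against 336 of the other miRNAs, or 29.1%. The members listed on 1 to 3 arrays had low signals, with a median of 12.7 over 65 values, of which 2 were above 30. Both of these belonged to MIMAT0007863.

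The listing did not separate the ages. The pattern of both aged arrays and neither young array was met by 1 member, or 0.901%, against 2.34% of the other miRNAs. It was MIMAT0009441, at 9.2 in aged mouse 1 and 15.5 in aged mouse 2. The opposite pattern was also met by 1 member, against 1.13% of the other miRNAs. It was MIMAT0009455, at 14.8 in young mouse 1 and 21.0 in young mouse 2. All 4 signals were below 25, the median of the listed values, and the lowest listed values were 7.0 and 9.5 in the aged mice and 7.0 and 8.1 in the young mice. By comparison, the pair of aged mouse 2 and young mouse 1, 1 of each age, had 3 members to itself, and the pair of mice numbered 1 also had 3. The most frequent pattern of 3 arrays was all but young mouse 2, with 7 members, or 6.31%, against 3.99% of the other miRNAs.

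MIMAT0007863 was the member with the highest signal among those not listed on all arrays. It was listed at 18.4 in aged mouse 2 and not listed in aged mouse 1, against 43.7 in young mouse 1 and 81.5 in young mouse 2. Both young signals were above the aged one. The highest was in young mouse 2, whose array had the lowest median signal of the shared miRNAs but the same median over all listed values. This member had no place in the test over miRNAs listed on all arrays. When a missing value was set to the lowest of its array, its log2 difference, aged minus young, came to -2.39 (standard error 0.58, adjusted p = 0.011 from limma over 578 miRNAs), and it was 1 of 2 miRNAs past the threshold there, 0.346% of those tested. That value rests on the filled signal of aged mouse 1. MIMAT0009455 had a log2 difference of -1.11 in the same fit and MIMAT0009441 one of 0.67, both with an adjusted p of 0.91 or 0.92 from limma.

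The identifiers fell into 4 runs separated by gaps of over 100 numbers, and the runs differed in how often they were listed. In the run from MIMAT0007863 to MIMAT0007880, which holds miR-1900, 16 of 18 members were listed on at least 1 array and 10 on all 4. In the run from MIMAT0005830 to MIMAT0005860, 9 of 31 were listed on at least 1 array and 4 on all 4. The run from MIMAT0009390 to MIMAT0009460 had 31 of 55 listed on at least 1 array and 9 on all 4, and the run from MIMAT0005438 to MIMAT0005460 had 4 of 7 and 3. The runs were read from the gaps between identifiers and were given no test. The highest signal was 981.7 in the third run and 1798.6 in the fourth, against 540.9 and 104.9 in the first and the second.

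**Figure D2:**
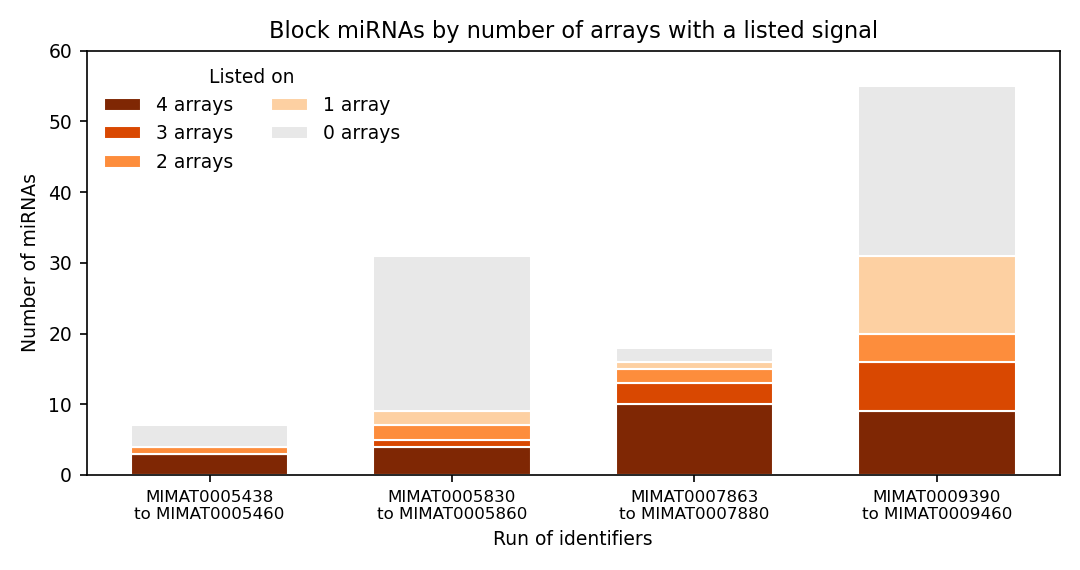
Number of members (vertical axis) in each of the 4 runs of identifiers, stacked by the number of arrays on which they were listed. The run from MIMAT0007863 to MIMAT0007880 is mostly dark, with 10 of 18 members on all 4 arrays, and 22 of the 31 members of the run from MIMAT0005830 to MIMAT0005860 were listed on none.

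The 26 members listed on all 4 arrays were compared between the ages as log2 signals, aged minus young, with limma fitted on all 362 shared miRNAs and Benjamini-Hochberg adjustment. An adjusted p under 0.05 was reached by 0 of the 26, where 0.276% of all miRNAs tested did, and 2 had an unadjusted p under 0.05, MIMAT0009438 and miR-1900, both higher in aged plasma. Of all tested miRNAs 6.08% had such an unadjusted p, and 3.87% had it with a higher level in aged plasma. The analysis of variance named in the methods also called 0 of them, and 0 had an unadjusted p under 0.05 in it. The adjusted p of the members ran from 0.53 to 0.92. The fit took 1 spread as common to all miRNAs, so every log2 difference has a standard error of 0.60. With 2 mice of each age, an exact permutation test cannot give a two-sided p below 0.333. Within an age the labels tell the mice apart by a number alone, so a p measures only the spread between these arrays. The study calls the numbers 1 and 2 experiments, and this fit had no block for them.

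The fitted level was higher in aged plasma for 24 of the 26 members and lower for 2, where 68% of all tested miRNAs were higher. The median log2 difference was 0.43, beside 0.31 over all 362 miRNAs. On the deposited scale this direction depended on young mouse 2. Without that mouse 12 members were higher and 14 lower, where 138 of all 362 miRNAs were higher. The median was then -0.06, beside -0.14 over all miRNAs. The median was 1.07 without young mouse 1 (0.73 over all miRNAs), 0.31 without aged mouse 1 (0.28) and 0.55 without aged mouse 2 (0.28). When each array was rescaled so that the 362 shared miRNAs had the same median (called equal medians here), 19 were higher (53.9% of all tested) and 7 lower, with a median of 0.16, beside 0.03 over all miRNAs.

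**Figure D3:**
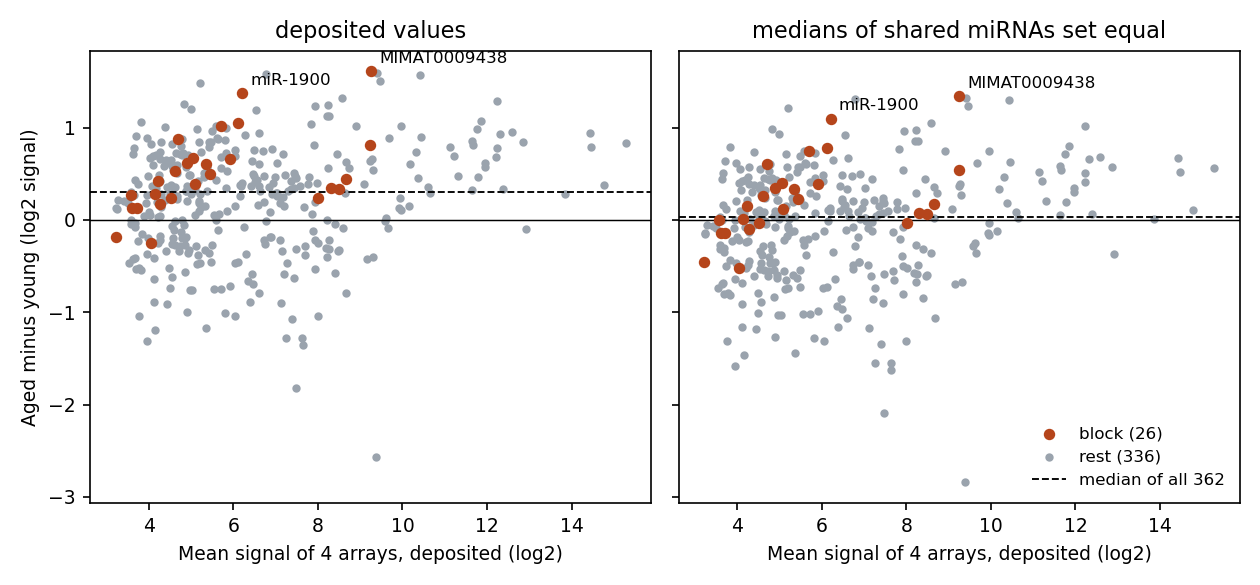
Log2 difference, aged minus young (vertical axis), against the mean log2 signal of the 4 arrays (horizontal axis), for the 26 members and the 336 other shared miRNAs, on the deposited scale (left) and after rescaling to equal medians (right). The dashed line is the median of all 362 miRNAs, at 0.31 on the left and 0.03 on the right, and MIMAT0009438 has the highest value in both panels.

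MIMAT0009438 had the highest log2 difference of all 362 miRNAs. Its signal was 1799 (1798.6) in aged mouse 1 and 635 in aged mouse 2, against 664 in young mouse 1 and 185 in young mouse 2. The ages overlapped, since aged mouse 2 lay below young mouse 1, and the mice numbered 1 had the higher signal at either age. The mean was 1217 ± 823 (SD, n = 2 mice) in aged and 424 ± 339 (SD, n = 2) in young plasma, a ratio of 2.87. The log2 difference was 1.61 (95% confidence interval 0.43 to 2.79, adjusted p = 0.53 from limma). That interval rests on the spread common to all miRNAs. The analysis of variance of the methods, which uses the spread of this miRNA alone, gave it an unadjusted p of 0.31. The miRNA next in order, outside the block, was at 1.59, a gap far below the standard error. No function is given here for this identifier, since its name was not at hand. The signals of MIMAT0009438 are not among those that the study printed for the miRNAs with the highest ratios. Its ratio of 2.87 nevertheless lies within the span of the high ratios printed there, and why it was not printed is not known here.

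The difference of MIMAT0009438 kept its sign with each array left out, at 0.86 and 2.36 when aged mouse 1 or aged mouse 2 was left out, and at 2.53 and 0.69 when young mouse 1 or young mouse 2 was left out. Without young mouse 1 it passed the threshold, in a fit that called 50 of 362 miRNAs and 5 of 26 members, all 5 higher in aged plasma. In the pair of mice numbered 1 it was 1.44, and in the pair numbered 2 it was 1.78. With equal medians its signals were 1554 and 609 in the aged mice, against 525 and 282 in the young mice, and the ages no longer overlapped. It was then the 1 member past the threshold, at 1.34 on the log2 scale (adjusted p = 0.048 from limma), where 4.42% of all miRNAs were past it, 1.1% higher and 3.31% lower in aged plasma. After quantile normalization 1.12 was found (adjusted p = 0.45 from limma). Over the 7 alternative limma fits with all 4 arrays, which leave out the analysis of variance, the adjusted p ran from 0.048 to 0.89.

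The level of miR-1900 differed little between the aged mice, at 120.3 in aged mouse 1 and 117.5 in aged mouse 2, against 72.8 in young mouse 1 and 29.1 in young mouse 2. Both aged mice lay above both young mice. The mean was 119 ± 1.98 (SD, n = 2 mice) in aged and 51.0 ± 30.9 (SD, n = 2) in young plasma, a ratio of 2.33. The log2 difference was 1.37 (95% confidence interval 0.19 to 2.54, adjusted p = 0.80 from limma), the 7th highest of 362. That interval also rests on the common spread, and the analysis of variance of the methods gave miR-1900 an unadjusted p of 0.17. The study chose miR-1900 for its ratio on these arrays, so its direction is not independent evidence.

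The log2 difference of miR-1900 was 0.72 between the mice numbered 1 and 2.01 between those numbered 2. Without young mouse 2 it was 0.71, without young mouse 1 it was 2.03, and it was 1.35 and 1.39 without aged mouse 1 and aged mouse 2. It also was among the 5 members past the threshold without young mouse 1, at an adjusted p of 0.0037 from limma. The small SD in aged mice was seen on the deposited scale. With equal medians its signals were 104 and 113 in the aged mice, against 57.5 and 44.4 in the young mice, and they differed by 1.10 on the log2 scale (adjusted p = 0.14 from limma). After quantile normalization 1.18 was found (adjusted p = 0.31 from limma). Over the 7 alternative limma fits with all 4 arrays, the adjusted p of miR-1900 ran from 0.14 to 0.89.

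**Figure D4:**
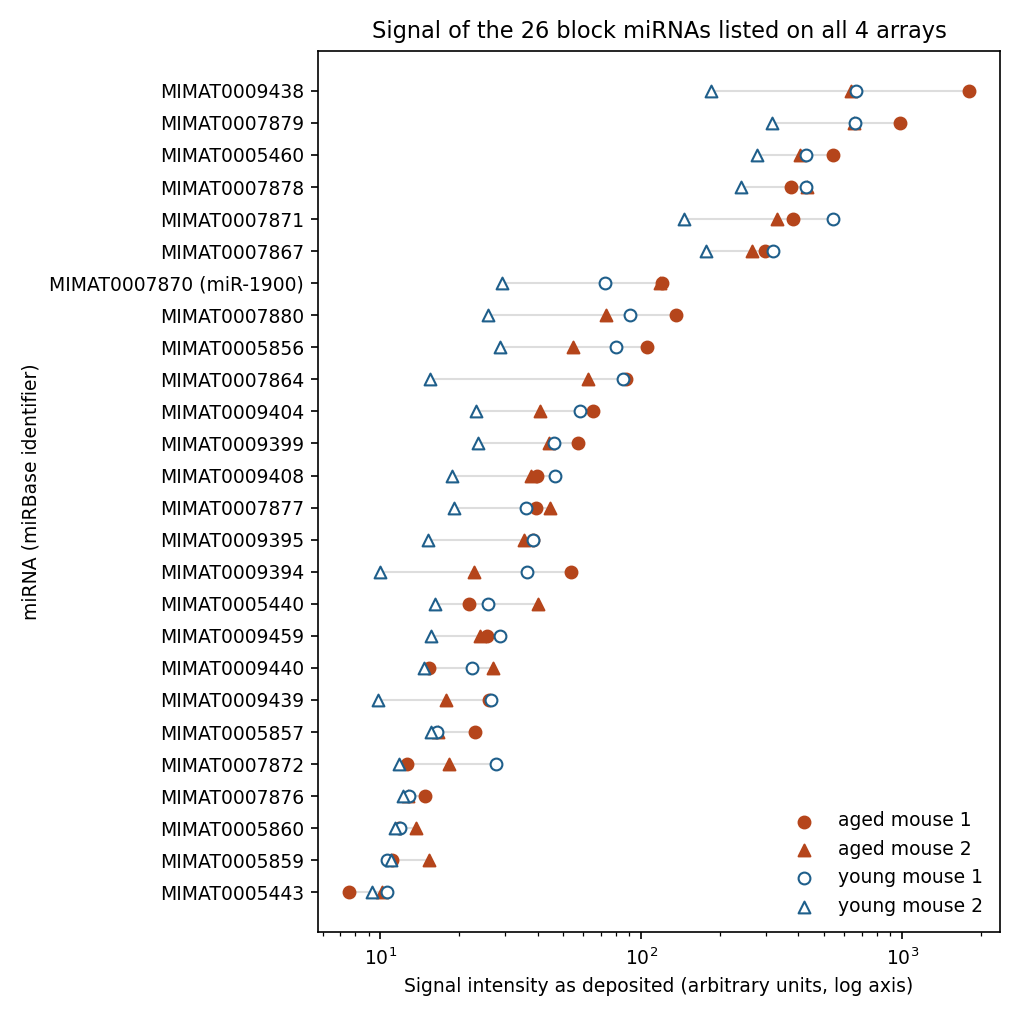
Deposited signal intensity (horizontal log axis, arbitrary units) of the 26 members listed on all 4 arrays, 1 row per miRNA, ordered by the mean log2 signal. Filled symbols are aged and open symbols young mice, circles mouse 1 and triangles mouse 2, and young mouse 2 is the lowest or close to the lowest in most rows.

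Signals of different probes depend on how each probe binds, so the order of the members by signal is not an order of amounts. Besides MIMAT0009438, the members with the highest signals were MIMAT0007879, MIMAT0005460, MIMAT0007878, MIMAT0007871 and MIMAT0007867. MIMAT0007879 was at 982 (981.7) in aged mouse 1 and 652 in aged mouse 2, against 659 in young mouse 1 and 316 in young mouse 2. Its ages overlapped by the narrow margin between aged mouse 2 and young mouse 1, and it differed by 0.81 on the log2 scale (adjusted p = 0.84 from limma). Leaving out young mouse 2 gave 0.28, and leaving out young mouse 1 gave 1.34.

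The other 4 of these members had log2 differences from 0.24 to 0.44, each below its standard error of 0.60. MIMAT0005460 was at 541 and 407 in aged mice 1 and 2, against 429 (428.5) and 278 in young mice 1 and 2, a log2 difference of 0.44, which was 0.13 without young mouse 2. MIMAT0007878 was at 376 and 433 in the aged mice, against 429 and 240.4 in the young mice, a log2 difference of 0.33. In both, young mouse 2 was the lowest and young mouse 1 lay within the range of the aged mice. MIMAT0007871 was at 382 and 331 in the aged mice, against 542 and 145 in the young mice, a log2 difference of 0.34. MIMAT0007867 was at 297 and 265 in the aged mice, against 319.9 and 177 in the young mice, a log2 difference of 0.24. In these 2 members both aged signals lay between the young ones, and with equal medians the log2 difference of MIMAT0007867 was -0.034. The 95% confidence intervals of all 4 took in every value from -0.73 to 1.41, on both sides of 0. Without young mouse 2 the log2 differences of MIMAT0007878, MIMAT0007871 and MIMAT0007867 were -0.088, -0.61 and -0.19.

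MIMAT0007880, MIMAT0007864 and MIMAT0009394 had the next largest differences after MIMAT0009438 and miR-1900. The signal of MIMAT0007880 was 135 and 73.2 in aged mice 1 and 2, against 90.3 and 25.8 in young mice 1 and 2, a log2 difference of 1.04. That of MIMAT0007864 was 87.6 and 62.3 in the aged mice, against 85.4 and 15.5 in the young mice, a log2 difference of 1.02. That of MIMAT0009394 was 53.8 and 22.8 in the aged mice, against 36.4 and 10 in the young mice, a log2 difference of 0.88. In all 3, aged mouse 2 lay below young mouse 1, so the ages overlapped, and each had an adjusted p of 0.84 from limma. Without young mouse 2 the log2 differences of MIMAT0007880, MIMAT0007864 and MIMAT0009394 were 0.14, -0.21 and -0.056, and without young mouse 1 they were 1.95, 2.25 and 1.81. MIMAT0005856, also among the 10 members with the highest signals, was at 105 (104.9) and 54.5 in the aged mice, against 79.9 and 28.8 in the young mice. Its log2 difference was 0.66, and -0.080 without young mouse 2.

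The members with a lower fitted level in aged plasma were MIMAT0007872 and MIMAT0005443. MIMAT0007872 was at 12.6 and 18.3 in aged mice 1 and 2, against 27.7 and 11.8 in young mice 1 and 2, and was lower by 0.25 on the log2 scale (-0.25, adjusted p = 0.88 from limma). MIMAT0005443 was at 7.6 and 10.1 in the aged mice, against 10.6 and 9.3 in the young mice, and was lower by 0.18 on the log2 scale (-0.18, adjusted p = 0.89 from limma). The ages overlapped in both, and the signals of MIMAT0005443 were close to the lowest listed on the arrays. With equal medians both aged signals of MIMAT0007872, 10.9 and 17.6, lay below both young ones, 21.9 and 18.0. Without aged mouse 1 the log2 differences of MIMAT0007872 and MIMAT0005443 were 0.018 and 0.025.

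The aged mice lay above both young mice for 4 of the 26 members and below them for 0, on the deposited scale, where the groups did not overlap for 29.8% of all tested miRNAs, with the aged mice above for 19.9% and below for 9.94%. Besides miR-1900 these were MIMAT0007877, MIMAT0005857 and MIMAT0005859, named here after their values were seen. MIMAT0007877 was at 39.4 and 44.5 in the aged mice, against 36.0 and 19.2 in the young mice, a log2 difference of 0.67, with 0.22 when young mouse 2 was left out and 1.12 when young mouse 1 was. For MIMAT0005857 and MIMAT0005859 the nearest mice of the 2 ages differed by 0.1, at 16.6 against 16.5 and at 11.1 against 11.0. With equal medians the aged mice lay above both young mice for 6 members and below for 1, where 44.5% of all tested miRNAs had no overlap, with the aged mice above for 21.8% and below for 22.7%. Both miR-1900 and MIMAT0007877 were among the 6, and MIMAT0005857 and MIMAT0005859 were not.

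The members differed more between the young mice than between the aged mice on the deposited scale. Young mouse 2 was below young mouse 1 for 25 of the 26 members, or 96.2%, beside 344 of all 362 miRNAs, or 95%, with a median log2 difference of -1.01, beside -0.87 over all 362 miRNAs. The extreme was MIMAT0007864 at -2.46, the most negative value of all 362. Between the aged mice, mouse 2 minus mouse 1, the median of the members was -0.19, beside 0.05 over all miRNAs. With equal medians the members had a median of -0.06 between the young mice and -0.04 between the aged mice, and the median absolute log2 difference was 0.38 between the young and 0.36 between the aged mice.

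Between the mice numbered 1, the log2 difference, aged minus young, had a median of 0.05 over the 26 members, and 15 were higher in the aged mouse, or 57.7%, beside 39.8% of all tested miRNAs. Between the mice numbered 2 the median was 0.89, and all 26 were higher in the aged mouse, beside 85.4% of all tested miRNAs. Over all 362 miRNAs the medians were -0.12 and 0.75, so the members lay a little above the other miRNAs in both pairs while the gap between the pairs was shared with them. In both pairs 15 members were higher in the aged mouse and 0 lower, where 37.8% of all tested miRNAs were higher and 12.7% lower in both. Many of the signs between the mice numbered 1 rest on small values, since 13 of the 26 members had a log2 difference under 0.25 in size there. With equal medians the members had medians of 0.18 and 0.22, beside 0.01 and 0.08 over all miRNAs, and 12 were higher and 3 lower in both pairs, where 35.9% of all were higher and 31.2% lower in both.

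**Figure D5:**
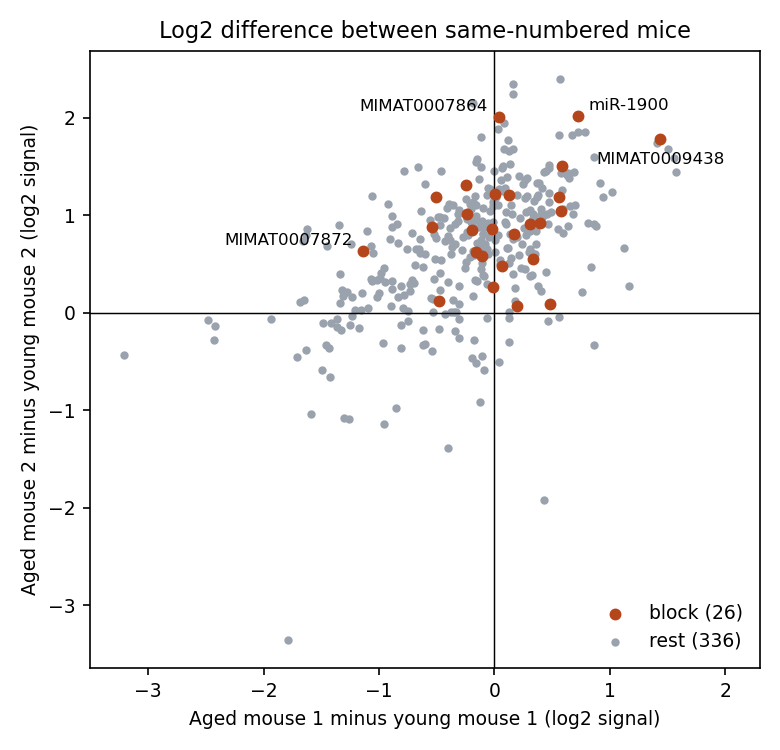
Log2 difference between the aged and the young mouse numbered 2 (vertical axis) against that of the mice numbered 1 (horizontal axis), on the deposited scale, for the 26 members and the 336 other shared miRNAs. All 26 members lie above 0 on the vertical axis and 15 lie to the right of 0 on the horizontal axis.

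The ratio of mean signals, aged over young, had a median of 1.27 over the 26 members, beside 1.19 over all 362 miRNAs, and ran from 0.782 for MIMAT0007872 to 2.87 for MIMAT0009438. It was at least 2 for 2 members, MIMAT0009438 and miR-1900, where 4.42% of all tested miRNAs were, and at most 0.5 for 0 members, where 3.59% were. The 10 members listed on all arrays whose values are not given above had signals from 9.8 to 65.5, and their log2 differences ran from 0.13 to 0.61, with an adjusted p of 0.86 to 0.92 from limma. In the brighter part of the chip, at or above the median mean signal of the 362 shared miRNAs, lay 9 of the 26 members. Those 9 held both MIMAT0009438 and miR-1900, and with a fit on the brighter miRNAs alone their adjusted p was 0.41 and 0.62 from limma.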

How the data were processed

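Plasma RNA of 2 aged and 2 young mice was measured with version 19 of the 3D-Gene mouse chip, a single array for each mouse. The authors deposited linear signal intensities, with a median of 25 over the listed values of each array. No source used here gives the background correction or the way arrays were scaled. Raw intensities in 8 more columns carry headings that name no mouse, and were not used.

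The log2 signals of 362 miRNAs listed on all 4 arrays were compared by age in limma 3.58.1 (R 4.3.3), with moderated variances and no block. Benjamini-Hochberg adjusted p-values ran over all 362, and the threshold was 0.05. The number of arrays limits the precision. Summaries and plots were made in Python 3.11.15 with pandas 2.3.3 and matplotlib 3.10.9. Sequences came from RefSeq tables of GRCm38.p6, in which 1 of 111 members was matched.

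The members and lists were chosen with earlier results of these data known. Values were given for miR-1900, the 10 members with the highest mean log2 signal, the 5 largest differences each way (2 were lower), any member past the threshold, and those listed on both arrays of 1 age alone. Arm pairs, the Dlk1-Dio3 region, the Sfmbt2 cluster families, mirtrons and sequence features were also planned, but could not be analysed without names for the identifiers. The planned miR-1224-3p lies outside the range, and 1 row with only its second identifier in the range was left out.

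Alternatives were equal medians of the shared miRNAs, quantile normalization, dropping dim miRNAs, filling missing values with the lowest of each array, adding 16 before log2, the mouse number as a block, trended and robust variances, the analysis of variance of the methods, and leaving out each array.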

Additional observations from a re-analysis of the deposited data

How the results depend on the processing

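On all 4 arrays 1 of 362 miRNAs and 0 of the 26 members passed the threshold. Setting medians equal gave 16 and 1, and filling missing values with each array's lowest gave 2 and 1. Of all miRNAs, 0 passed with quantile normalization, with a trended and robust variance or with the analysis of variance of the methods (53, 15 and 7 at an unadjusted p under 0.05), and 0 members did (1, 2 and 0). With 1 array left out the counts ran from 0 to 50 and from 0 to 5, the highest without young mouse 1, in fits where the lone mouse of an age is assumed to vary like the 2 of the other. Members with separate ages numbered 4, where 29.8% of all tested miRNAs had them. They numbered 7 with equal medians (44.5% of all), 7 with quantile normalization (47.8%), 1 of the 9 left by the filter on low signals (30.9%), 10 of 46 with missing values filled (29.8%), and 8 to 25 with 1 array left out (50.3% to 82.3%). The median log2 difference of the members ran from -0.06 to 1.07 with 1 array left out (-0.14 to 0.73 over all miRNAs). Under the other settings it ran from 0.16 to 0.66. The 0.66 was over the 9 members left by the filter on low signals, beside 0.36 over all miRNAs left by it. The ratio of miR-1900 ran from 1.63 to 4.09 and that of MIMAT0009438 from 1.496 to 6.59 with 1 array left out, the highest again without young mouse 1.

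Of the 16 members with values in the text, MIMAT0007867 changed sign with equal medians, at -0.034. No other of the 16 did under the settings with all 4 arrays that were run. Outside the 16, MIMAT0005860, MIMAT0007876, MIMAT0009440 and MIMAT0009459 also changed sign with equal medians. With 1 array left out the log2 difference ran from -0.39 to 0.025 for MIMAT0005443, -0.080 to 1.39 for MIMAT0005856, -0.21 to 2.25 for MIMAT0007864, -0.19 to 0.66 for MIMAT0007867, -0.61 to 1.29 for MIMAT0007871, -0.87 to 0.36 for MIMAT0007872, -0.088 to 0.75 for MIMAT0007878 and -0.056 to 1.81 for MIMAT0009394. Without young mouse 2, 6 of these members changed sign. The cause was not tested. The mice share the numbers 1 and 2, which the study calls experiments, and across miRNAs the departures from the mean of the age correlated at 0.34 between same-numbered arrays, but nothing read here says these were processed together. With the replicate block 1 miRNA and 0 members passed, and no call changed. An alternative on raw intensities was not run, as no heading there names a mouse. Listing on both arrays of an age gave 35 (aged) and 30 (young) members in place of 26. Signals near 7 to 9.5, the lowest listed, limit what can be seen for the dim members.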
